A study of Mus musculus with 9 samples.

Results

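Neutrophils, the short-lived granulocytes that are made in bone marrow and reach tissues through the blood, can be followed in bulk RNA through the genes of their granules, their cytosolic proteins and their receptors. Of 36 such genes, chosen by name, 27 had a probe on the array, each of them 1 probe, out of 23631 features tested. The 9 genes without a probe named for them were Ly6g, Ly6c2, Fpr1, Chil3, Stfa1, Stfa2, Stfa3, Stfa2l1 and BC100530, and they are not analysed here. RNA came from the olfactory mucosa of male C57BL/6 mice of 6 to 8 weeks, with 3 arrays in each of 3 groups. The control mice were given saline for 2 weeks, the D1 mice dexamethasone for 1 day, and the WK2 mice dexamethasone every day for 2 weeks at 1 mg/kg into the peritoneum. The labels state that dose beside the WK2 treatment and give none beside D1. D1 was set against the saline group of 2 weeks, from which it differs in agent and in length of injection. Samples had been picked for their olfactory marker protein, and the labels do not say whether the 3 samples of a group were separate animals, and a p-value here reflects the scatter of these samples alone, part of which may be technical.

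Neutrophils fill their granules in order as they mature in the marrow. Primary granule proteases and myeloperoxidase are transcribed in promyelocytes, specific granule proteins such as lactoferrin in myelocytes and metamyelocytes, and gelatinase and many surface receptors in the last stages. Transcripts of the primary granule proteins are therefore marks of immature cells, while Cxcr2 marks mature ones. Glucocorticoids such as dexamethasone are known to release neutrophils from the marrow, to prolong their life and to hinder their passage into tissue. Several of the genes have other sources: Ltf and Lcn2 are also made by gland and airway epithelium, Mmp9 by osteoclasts and macrophages, and Clec4d and Clec4e by macrophages.

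The 12 markers of mature olfactory neurons, which define this tissue, were all measured, and their lowest value on any array was 23230.1. Array medians ran from 1202 to 1447. Intensities are given on the linear scale of the deposited table, and differences on the log2(intensity + 50) scale, which understates changes of dim genes such as Cxcr2. In RNA of a whole tissue, fewer cells of a type and less RNA per cell cannot be told apart, and precision is limited by having 3 arrays in a group.

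None of the 27 genes passed the test in any of the 3 comparisons, and for most of them the spread between arrays of 1 group was wide. D1 replicate 2 was the highest of the D1 arrays for 26 of the 27 genes, where it was the highest for 36.8% of all features. The exception was Clec4e. Control replicate 2 was the highest control array for 23 of 27 genes (28.3% of all features) and control replicate 1 the lowest for 19 (20.4%). WK2 replicate 1 was the highest of its group for 20 genes (31.2%). After centring each array on its median these counts were 26 (25.9% of all features), 24 (43.1%), 20 (32.6%) and 19 (23.7%). Over all 9 arrays as deposited, D1 replicate 2 held the highest value of 18 genes (6.68% of all features) and control replicate 1 the lowest of 14 (3.18%).

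**Figure D1:**
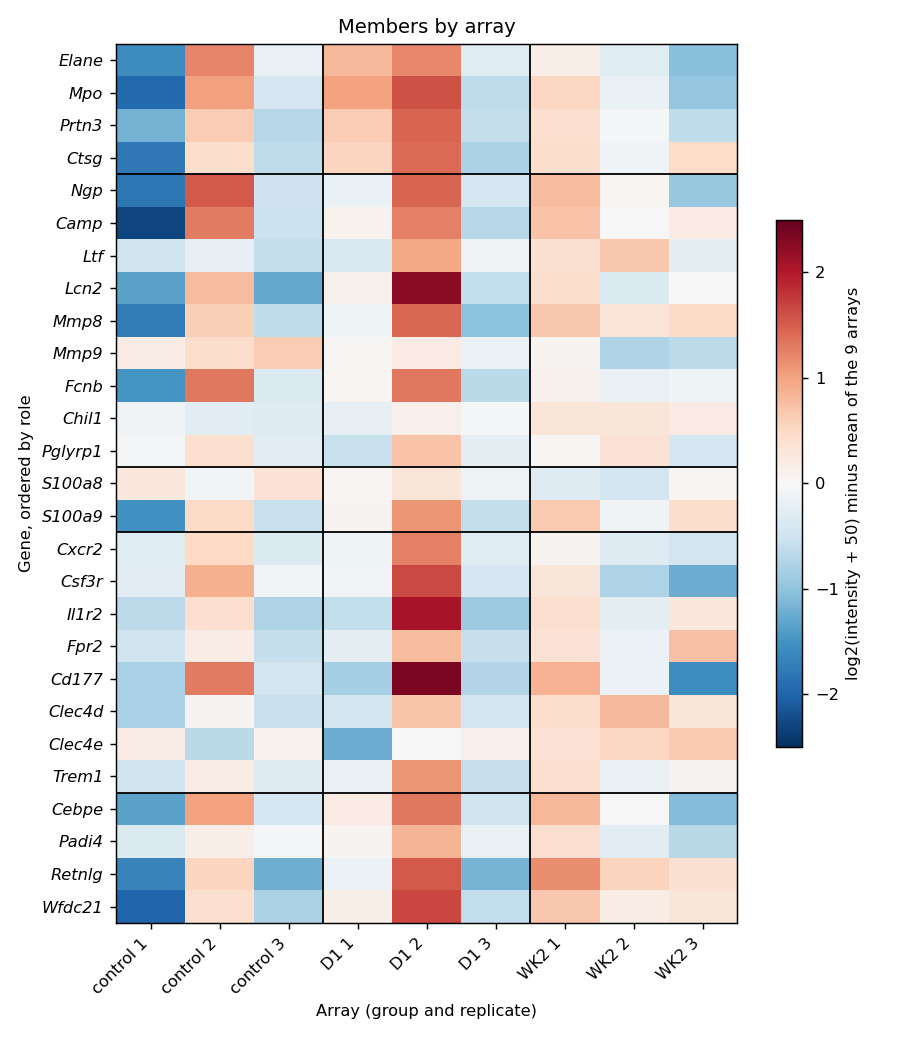
Each row is 1 of the 27 neutrophil genes, ordered by role with black lines between roles, and each column 1 array; colour is the log2(intensity + 50) value minus the gene's mean of the 9 arrays. The columns of control replicate 2 and D1 replicate 2 are mostly red and that of control replicate 1 mostly blue, while S100a8, Chil1, Mmp9 and Clec4e do not follow the other rows.

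The spread within groups set these genes apart from most of the array. The within-group SD, pooled over the 3 groups, had a median of 0.86 on the log2 scale over the 27 genes and of 0.25 over all features. For 24 of the 27 it lay above the 90th percentile of all features. Cd177, a surface glycoprotein of neutrophils, had the widest spread of the 27 (1.42), followed by Ngp (1.25), Camp (1.20) and Mpo (1.17). Chil1 (0.13), S100a8 (0.24) and Mmp9 (0.31) were the 3 below that percentile. The replicate spread sets the error of every group comparison, and the group differences of the other 24 genes had standard errors of 0.32 to 0.90 (log2). Wide spread was not confined to them, since the 7 erythroid genes taken up below had standard errors of 0.31 to 0.69.

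**Figure D2:**
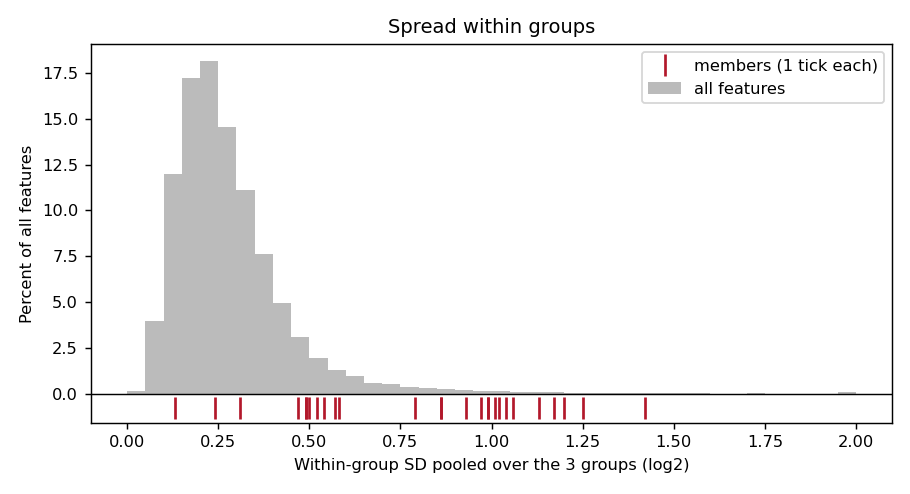
Grey bars give the percent of all 23631 features in each 0.05-wide bin of within-group SD (log2 scale, pooled over the 3 groups, the last bin holding all larger values), and each red tick is 1 of the 27 neutrophil genes. Most features lie below 0.5, and 24 ticks lie above the 90th percentile of all features.

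The 4 primary (azurophil) granule genes had within-group SDs of 0.86 to 1.17 (log2). Elane encodes neutrophil elastase, Prtn3 proteinase 3, Ctsg cathepsin G and Mpo myeloperoxidase, which makes hypochlorous acid. Elane and Prtn3 lie next to each other on chromosome 10 with 3.1 kb between them. Their 150 bases before the gene start are shown for 2 reasons. Both genes had the same order of arrays within each of the 3 groups. Both windows hold a match to the core of the myeloid factor PU.1 at a similar distance. That order of arrays was not particular to the pair, since Mpo, Ngp, Csf3r, Cebpe and Padi4 had it too. Of these, Csf3r had a PU.1 match in its window, Mpo, Ngp and Padi4 had none, and Cebpe had no window at hand. Sequences are from RefSeq on GRCm38.p6, plus strand, at chr10:79886162-79886311 and chr10:79879517-79879666, with the motif GAGGAA in capitals.
Elane: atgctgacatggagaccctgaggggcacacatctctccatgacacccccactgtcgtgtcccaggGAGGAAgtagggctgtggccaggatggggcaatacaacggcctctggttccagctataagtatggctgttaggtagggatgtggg
Prtn3: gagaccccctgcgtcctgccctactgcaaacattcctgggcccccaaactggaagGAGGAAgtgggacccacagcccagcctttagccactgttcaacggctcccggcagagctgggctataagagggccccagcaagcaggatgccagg
The match begins 85 bases before the start in Elane and 95 bases before it in Prtn3. GAGGAA, on either strand, occurred in 9 of the 24 genes whose window was at hand and in 14.5% of all 32851 windows of 150 bases in the RefSeq promoter table. A match in a window describes letters and says nothing of binding.

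Mpo read 2165, 17293 and 6311 in the control arrays, 17094, 25514 and 5446 in the D1 arrays and 12143, 7549.7 and 4266 in the WK2 arrays, always in the order of replicates 1, 2 and 3. Control replicate 1 and D1 replicate 2 were the lowest and the highest of the 9, and the groups overlapped. Elane read 508, 3846 and 1406 in the control arrays, 2872, 3797 and 1305 in the D1 arrays and 1812, 1304 and 759 in the WK2 arrays. Ctsg read 869, 4285 and 2019 in the control arrays, 4591, 8519 and 1795 in the D1 arrays and 4235, 2955 and 4303 in the WK2 arrays. Prtn3 spanned 2231 to 7954 in the control, 3379 to 14061 in D1 and 3264 to 6886 in WK2. In D1 all 4 genes were high on replicates 1 and 2 and low on replicate 3, with replicate 1 at 2.16 to 3.12 times replicate 3 as ratios of intensity + 50. In the comparison of D1 with control the 4 differences were 0.76 for Elane, 1.10 for Mpo, 0.92 for Prtn3 and 1.05 for Ctsg, and the 95% interval of Mpo was -0.57 to 2.77. In WK2 against control Elane lay at -0.21, Mpo at 0.24, Prtn3 at 0.34 and Ctsg at 0.92. Without control replicate 1 the WK2 values of Elane and Mpo were -0.91 and -0.51.

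The other roles, the surface receptors among them, did not share the D1 replicate 1 values of the primary granule genes. On that array the 4 primary granule genes had a median of 0.72 above their 9-array means, and the 8 receptor and surface genes a median of -0.35. The specific and gelatinase granule genes had -0.12, the S100 genes 0.06 and the nuclear and small secreted proteins 0.11. Between D1 replicates 1 and 3 the primary granule genes differed by a median of 1.28 (log2) and the receptors by 0.26. The specific and gelatinase granule genes differed by 0.26 as well, the S100 genes by 0.43 and the nuclear and small secreted proteins by 0.73. Between D1 replicates 2 and 1 the order turned, with medians of 0.70 for the primary granule genes and 1.32 for the receptors, up to 3.19 for Cd177. In that pair the median was 1.27 for the specific and gelatinase granule genes, 0.64 for the S100 genes and 1.31 for the nuclear and small secreted proteins. These are single arrays, chosen after their values were seen, and the differences between the roles were not tested.

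The specific granule holds lactoferrin (Ltf), the iron-scavenger binder lipocalin 2 (Lcn2), the cathelicidin Camp, neutrophilic granule protein (Ngp) and neutrophil collagenase (Mmp8), and the gelatinase granule holds Mmp9. Ngp is shown with the 150 bases before its start, at chr9:110419658-110419807 on the plus strand of GRCm38.p6, because its window held 3 matches to the C/EBP motif TTNNGNAA, in capitals; C/EBP epsilon drives specific granule genes.
Ngp: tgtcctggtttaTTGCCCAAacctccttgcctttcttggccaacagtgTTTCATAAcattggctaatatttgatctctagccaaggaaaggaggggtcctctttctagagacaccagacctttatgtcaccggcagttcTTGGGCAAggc
TTNNGNAA, on either strand, occurred in 12 of the 24 gene windows at hand and in 22.7% of all windows. Of the other genes of this role, the windows of Ltf, Mmp8, Fcnb and Chil1 also held it. Those of Camp, Lcn2 and Pglyrp1 did not, and Mmp9 had no window at hand. Outside this role the motif occurred in S100a8, S100a9, Cd177, Clec4d, Clec4e, Fpr2 and Trem1. Clec4d, a receptor gene, held 3 matches as Ngp did, so the motif was not particular to this role. The glucocorticoid receptor half-site TGTTCT occurred in 1 of the 24 windows, beside 9.62% of all windows. The RUNX motif TGTGGT occurred in 3 of the 24 (8.4%) and TATAAA in 5 (7.57%). No test of these shares was made. No overlap between the C/EBP and PU.1 matches occurred in the sequences printed here.

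Ngp read 2867, 29568 and 7028 in the control arrays, 9034, 27925 and 7524 in the D1 arrays and 17636, 10431 and 5199.7 in the WK2 arrays. Camp read 4355, 53350.5 and 14950.0 in the control arrays, 22827, 51668 and 13192 in the D1 arrays and 35247, 21388 and 25028 in the WK2 arrays. For both, control replicates 1 and 2 were the lowest and the highest of all 9 arrays, so the control spanned both treated groups. Lcn2 read 11960.2, 52166 and 12476 in the control arrays, 32529, 145461 and 19661 in the D1 arrays and 40852, 23941 and 30068 in the WK2 arrays, where D1 replicate 2 stood above every other array. Ltf read 109886, 136441 and 103524 in the control arrays, 120347, 304825 and 145935 in the D1 arrays and 204204, 250054 and 132319 in the WK2 arrays. Its difference was 0.60 ± 0.34 (SE) in D1 (adjusted p = 1.00, limma) and 0.71 ± 0.34 (SE) in WK2 (adjusted p = 0.192, limma), with 2 of 3 WK2 arrays above all control arrays. Mmp8 spanned 560.1 to 3054 in the control and 2530 to 3230 in WK2, and Fcnb, ficolin B, 331 to 2653 and 902 to 1108. In Fcnb all WK2 arrays lay inside the control range, and in Mmp8 WK2 replicate 1 was above it. Pglyrp1, a peptidoglycan-binding protein, lay at -0.07 in D1 and -0.04 in WK2.

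Mmp9 and Chil1, of the same role, had the smallest p of the 27 genes in WK2 against control, and neither passed. Mmp9, gelatinase B, read 26516, 31578 and 36352 in the control arrays, 23713, 26921 and 20951 in the D1 arrays and 24358, 13754 and 14806 in the WK2 arrays. All WK2 arrays lay below all control arrays. The mean was 17639 ± 5842 in WK2 and 31482 ± 4918 (SD, n = 3) in the control, a log2 difference of -0.87 ± 0.23 (SE) with a 95% interval of -1.38 to -0.36 (adjusted p = 0.0645, limma). It passed with median centring (-0.97, adjusted p = 0.0389, limma), without the dimmest 50% of features (0.0445) and without WK2 replicate 1 (-1.13, 0.0340), and it was below control under all 20 alternatives. Beside it, the bone and marrow stroma list, which holds osteoclast genes, had 8 of 9 genes below control in D1, with a median of -0.40. In WK2 7 of 9 lay below, with a median of -0.20. Of all features 56.6% lay above control in D1 and 62.7% in WK2. The 1 gene past the test was Dmp1 at -1.53 in WK2, where 1.18% of all features were called lower. The osteoclast genes Ctsk and Acp5 lay at -0.62 and -0.04 in D1 and at -0.08 and 0.05 in WK2. The summed level of that list was 174269 to 203894 in the control, 113241 to 119157 in D1 and 138145 to 294725 in WK2. The part of this list in the Mmp9 value was not tested.

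Chil1, a chitinase-like glycoprotein that specific granules hold and that epithelium and macrophages also make, read 4333, 3824 and 3651 in the control arrays, 3977, 5021 and 4432 in the D1 arrays and 5667, 5655 and 5267 in the WK2 arrays. All WK2 arrays lay above all control and all D1 arrays. The difference from control was 0.49 ± 0.14 (SE), with an interval of 0.17 to 0.81 (adjusted p = 0.0766, limma), and it ran from 0.39 to 0.56 over 20 alternatives. It passed with quantile normalization (0.0482), with a pseudocount of 500 (0.0486) and with array weights (0.0322). Control replicate 2, the highest control array for 23 of the 27 genes, was not the highest for Chil1. The nasal gland list, with 13 of 14 genes measured and none at 0, had a summed level of 2178134 to 2378006 in the control, 2346016 to 2968739 in D1 and 2843629 to 3442544 in WK2. In WK2 9 of its 13 genes lay above control, where 62.7% of all features did, with a median of 0.38. The list went both ways, with 6 genes higher (23.8% of all features) and 2 lower (13.8%) without overlap. The lower ones were Bpifb4 at -1.01 and Muc5b at -0.77, named after their values were seen. The sum gives most weight to the brightest genes, and the list's part in the values of Chil1, Ltf and Lcn2 was not tested.

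**Figure D3:**
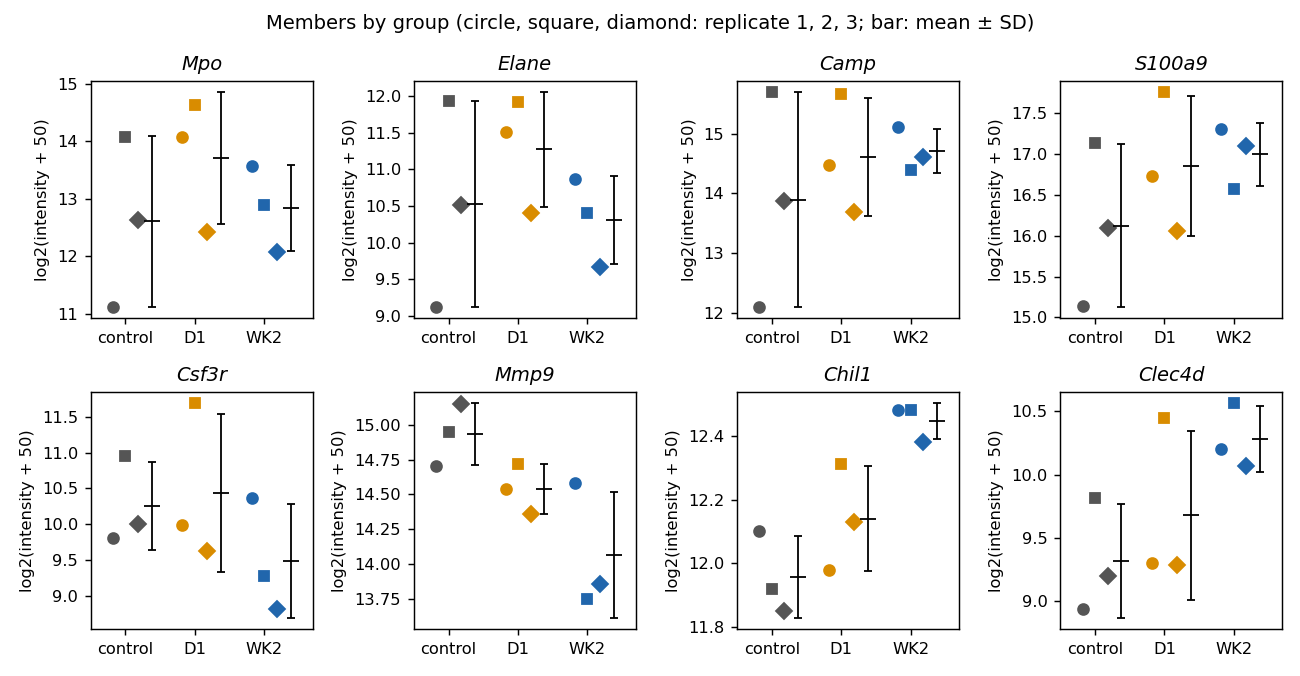
Each panel plots log2(intensity + 50) of 1 gene by group, with a circle, square and diamond for replicates 1, 2 and 3 and a black bar for mean ± SD; the vertical scales differ. Mpo, Elane, Camp and S100a9 spread widely within the control, while all WK2 points of Mmp9 lie below and those of Chil1 and Clec4d above all control points.

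S100a8 and S100a9 encode the subunits of calprotectin, the main cytosolic protein of neutrophils, and are known to be transcribed together. Here their probes gave different patterns. S100a9 read 36088, 143987 and 69619 in the control arrays, 108549, 222582 and 68077 in the D1 arrays and 162287, 97355 and 140187 in the WK2 arrays. S100a8 read 597, 464 and 643 in the control arrays, 508, 612 and 442 in the D1 arrays and 383, 335 and 508 in the WK2 arrays. S100a9 had the same highest and lowest arrays as Mpo, with control replicate 2 at 3.99 times control replicate 1, while the S100a8 probe was lower on control replicate 2 than on replicate 1 and stayed between 335 and 643 throughout. The genes lie on chromosome 3 with 22.6 kb between them, and their upstream windows are shown because probes of such a pair differed. In capitals are matches to TTNNGNAA and, near the start of S100a8, to GAGGAA on the other strand (TTCCTC). S100a8 is at chr3:90668921-90669070 on the plus strand and S100a9 at chr3:90695722-90695871 on the minus strand of GRCm38.p6, both written in the direction of transcription.
S100a8: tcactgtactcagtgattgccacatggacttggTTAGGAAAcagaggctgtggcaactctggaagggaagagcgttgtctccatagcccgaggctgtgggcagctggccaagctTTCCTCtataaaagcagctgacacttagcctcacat
S100a9: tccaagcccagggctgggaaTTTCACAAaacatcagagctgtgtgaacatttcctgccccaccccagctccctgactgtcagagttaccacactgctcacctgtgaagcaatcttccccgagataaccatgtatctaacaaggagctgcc
Both windows held 1 C/EBP match, and a TATAAA lay 30 bases before the start in S100a8, where 7.57% of all windows held this motif. In WK2 against control S100a9 differed by 0.87 ± 0.52 (SE) (adjusted p = 0.267, limma) and S100a8 by -0.44 ± 0.19 (SE) (adjusted p = 0.164, limma). The probe sequences were not used here, so whether the S100a8 probe measures its transcript was not tested.

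Receptors and other surface proteins came next. Csf3r, the receptor of the growth factor G-CSF, read 842, 1931 and 978 in the control arrays, 969.5, 3285 and 743 in the D1 arrays and 1269.9, 573 and 399.6 in the WK2 arrays. Cxcr2, the receptor for neutrophil-attracting chemokines, was dim throughout, at 72.4, 166 and 70.7 in the control arrays, 92.3, 314 and 72.9 in the D1 arrays and 109.7, 72.3 and 61.6 in the WK2 arrays. In both, D1 replicate 2 stood above all other arrays and WK2 replicate 3 was the lowest. Csf3r differed by -0.77 in WK2 against control, with a 95% interval of -2.01 to 0.48, and by -0.96 in WK2 against D1. Cd177 ran from 725.0 to 7000 in D1, a 9.66-fold range within the group, and from 422.5 to 2458 in WK2. Il1r2, the decoy receptor for interleukin 1, ran from 694 to 5826 in D1, an 8.40-fold range. Fpr2, a formyl peptide receptor, differed by 0.62 in WK2 against control and Trem1, which amplifies inflammatory signals, by 0.31.

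The neighbouring C-type lectin receptor genes Clec4d and Clec4e, on chromosome 6 with 6.5 kb between them, lay higher in WK2 without overlap with the control, and neither passed. Clec4d read 439.7, 853 and 538 in the control arrays, 579.6, 1352 and 576 in the D1 arrays and 1122, 1467 and 1029 in the WK2 arrays. Its log2 difference was 0.96 ± 0.33 (SE) in WK2 against control, with an interval of 0.22 to 1.70 (adjusted p = 0.102, limma), and it passed with array weights (1.17, adjusted p = 0.0358, limma). Clec4e, also called Mincle, read 9135, 5036 and 8551 in the control arrays, 3414, 8137 and 8771 in the D1 arrays and 10386, 11608 and 12756 in the WK2 arrays. It lay at 0.65 ± 0.35 (SE) against control (adjusted p = 0.229, limma) and at 0.88 ± 0.35 (SE) against D1 (adjusted p = 0.226, limma). Control replicate 2, high for most of the 27 genes, was the lowest control array for Clec4e. Macrophage and monocyte markers had 7 of 11 genes above control in WK2, near the 62.7% of all features, with a median of 0.11 and a summed level of 64824 to 73826 in the control and 64471 to 92007 in WK2; their part in the lectin values was not tested.

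Retnlg and Wfdc21 encode small secreted proteins, Cebpe the transcription factor of late granule genes and Padi4 the enzyme that converts arginine to citrulline in histones. Wfdc21 read 1749.8, 9293 and 4036 in the control arrays, 7858, 22528 and 4616 in the D1 arrays and 11406, 8086 and 8767 in the WK2 arrays. Its difference had the smallest p of the 27 in D1 (1.20 ± 0.63 (SE), adjusted p = 1.00, limma), at nearly the size of its difference in WK2 (1.19, adjusted p = 0.220, limma). Both comparisons use the same control arrays. Retnlg had the largest difference in WK2, 1.48 ± 0.68 (SE) (adjusted p = 0.177, limma), at 24387 to 41912 in WK2 and 5816 to 27381 in the control. The control arrays at 5816 and 8035 lay below every WK2 array, and control replicate 2 among them. With array weights Retnlg passed at 2.23 (0.0485). Cebpe ran from 249.7 to 1467 in the control, 489 to 1839 in D1 and 307 to 1289 in WK2, and Padi4 differed by 0.32 in D1 and -0.10 in WK2.

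Dexamethasone for 1 day is addressed by setting D1 against control. Of the 27 genes 23 lay above control, where 56.6% of all features did, and their median was 0.51 beside 0.03 over all features. The limma test at an adjusted p under 0.05 called 0 of 27, with 0% of all features called. At an unadjusted p under 0.05 it was also 0 of 27, beside 2.00% of all features. In 0 of 27 were the D1 and control arrays without overlap, where 10.1% of all features were. Single arrays moved the median, which was 0.02 without D1 replicate 2, 0.18 without control replicate 1, 0.87 without D1 replicate 3 and 0.91 without control replicate 2. Without both replicates 2, an exclusion chosen after the data were seen, it was 0.31.

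Daily dexamethasone over 2 weeks is addressed by setting WK2 against control. Of the 27 genes 19 lay above control, where 62.7% of all features did, and 8 below. Their median was 0.34 and that of all features 0.14, which fell to 0.02 under quantile normalization, where the 27 had 0.40. The test called 0 of 27 genes beside 1.61% of all features. At an unadjusted p under 0.05 there were 4 of 27, beside 29.7% of all features. Chil1 and Clec4d were the higher ones (17.3% of all features) and Mmp9 and S100a8 the lower ones (12.4%). Without overlap were 3 genes on the higher side (23.8% of all features) and 1 on the lower side (13.8%). The shares at an unadjusted p under 0.05 and without overlap were below those of all features. The median was -0.03 without control replicate 1, 0.87 without control replicate 2, 0.15 without WK2 replicate 1 and 0.58 without WK2 replicate 3.

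Between WK2 and D1 the median was -0.13, with 10 genes above, where 61.6% of all features were, and 17 below. The 4 primary granule genes were all below D1, from -0.97 for Elane to -0.13 for Ctsg, with an interval of -2.39 to 0.46 for Elane. The test called 0 of 27 (0.0931% of all features), and 1 gene, Clec4e, had an unadjusted p under 0.05, beside 19.2% of all features in either direction and 8.96% on its higher side. Clec4e and Chil1 were higher in WK2 without overlap, where 18.7% of all features were, and 0 of 27 were lower without overlap (12.6%). D1 arrays enter this comparison and the one of D1 with control. Without D1 replicate 2 the median turned to 0.39, without D1 replicate 3 it was -0.57, without D1 replicate 1 it was -0.33 and without WK2 replicate 3 it was 0.04.

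**Figure D4:**
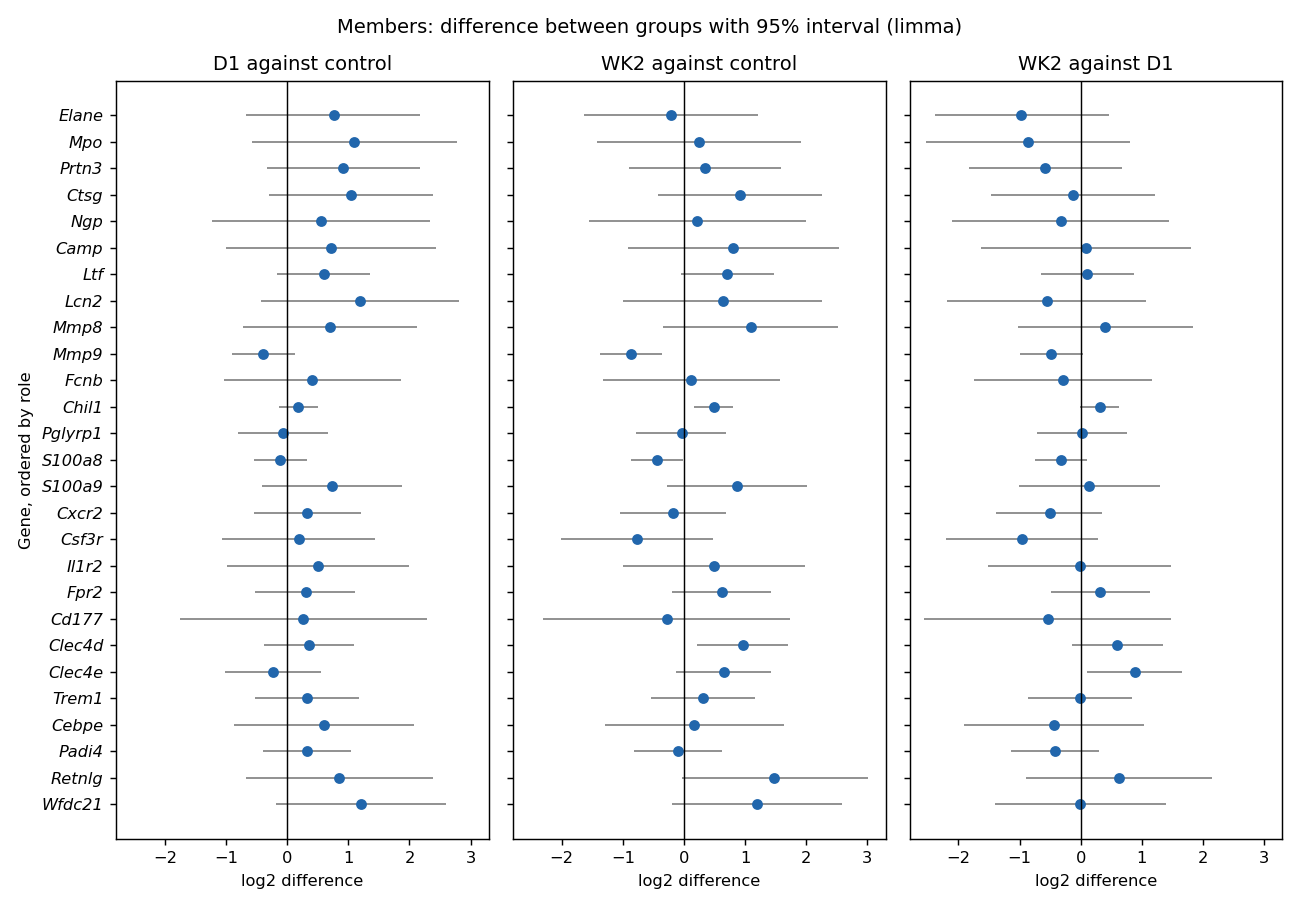
Points give the log2 difference of each of the 27 neutrophil genes in 3 comparisons and lines its 95% interval from the limma fit over all features, with genes ordered by role. Most lines cross 0; those of Mmp9 and S100a8 (lower) and Chil1 and Clec4d (higher) in WK2 against control and Clec4e in WK2 against D1 do not, and 0 of 27 passed after adjustment.

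Erythroid genes were high and low on the same arrays. The list had 7 of 15 genes measured, none at 0, and its median deviation from the 9-array means was 0.72 on control replicate 2, 0.51 on D1 replicate 2 and 0.44 on WK2 replicate 1, the highest of each group, as it was for the neutrophil genes (0.48, 1.26 and 0.42). It was -0.82 on control replicate 1 and -0.89 on D1 replicate 3, the lowest of their groups, as for the neutrophil genes (-0.82 and -0.57). Summed levels were 104733 to 236867 in the control, 94572 to 254184 in D1 and 152200.0 to 317056 in WK2. Other lists shared part of this order. Macrophage and monocyte markers stood at 0.14 and 0.39 on control and D1 replicates 2, the highest of these groups. They stood at -0.22 on control replicate 1 and -0.31 on D1 replicate 3, the lowest, but were highest on replicate 3 in WK2 (0.46). Eosinophil and mast cell markers had the same extremes in the control and D1, and T and NK cell markers the same highest arrays. The B lineage list had a median deviation of -0.15 to 0.38 over the 9 arrays, from genes that went different ways. On the log2(intensity + 50) scale Ms4a1, a surface protein of B cells, read 10.36 on control replicate 2 beside 8.98 and 8.50 on replicates 1 and 3, and Pax5, a B cell transcription factor, read 8.67 beside 9.81 and 9.57. These 2 genes were chosen after their values were seen. Whether RNA of blood or marrow has a part in the neutrophil values was not tested.

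**Figure D5:**
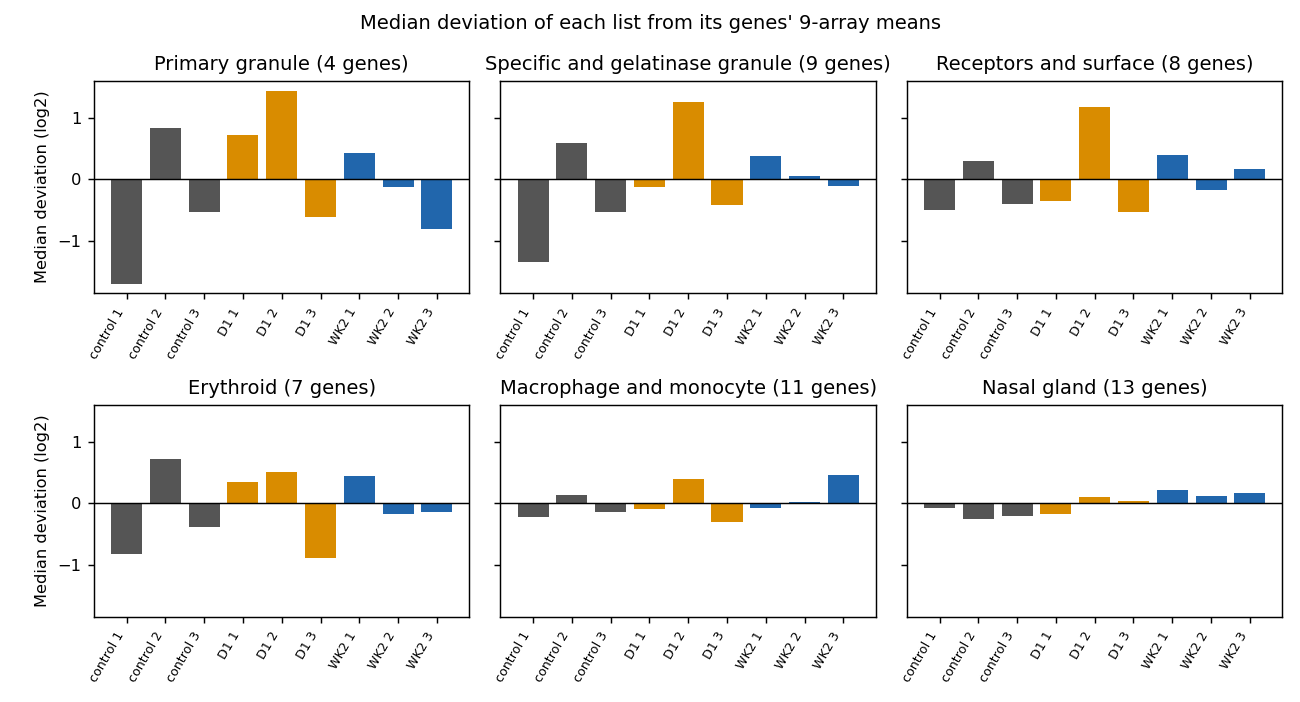
Bars give, for each array, the median deviation (log2) of a gene list from its genes' means over the 9 arrays, for 3 roles of the neutrophil genes and for erythroid, macrophage and monocyte and nasal gland markers, coloured by group (control grey, D1 orange, WK2 blue). Control replicate 2 and D1 replicate 2 are high and control replicate 1 and D1 replicate 3 low in the neutrophil and erythroid panels. The macrophage and monocyte panel shows this too, with smaller bars, and the nasal gland bars are highest in WK2.

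Genes that govern the supply of neutrophils were examined as a separate list of 24, all measured. In D1 against control 0 passed, beside 0% of all features, with 16 above, where 56.6% of all features were, and 8 below. In WK2 against control Cxcl1, a chemokine that binds Cxcr2, rose (2.55 ± 0.36 (SE), adjusted p = 0.0331, limma) and was the only gene of the list to pass, where 0.432% of all features were called higher and 1.18% lower. It read 242, 251 and 227 in the control arrays, 253, 445 and 268 in the D1 arrays and 2712, 838 and 1970.2 in the WK2 arrays, with all WK2 arrays above all others. It lay at 1.57 to 3.02 and passed under 10 of 19 alternatives. The call ended without control replicate 1 (adjusted p = 0.0919, limma), control replicate 2 (0.0782), control replicate 3 (0.148), D1 replicate 1 (0.0544), D1 replicate 3 (0.0584) or WK2 replicate 3 (0.0800). It also ended without both replicates 2 of control and D1 (0.116), in a fit of the 2 groups alone (0.0839) and with the replicate number as a block (0.0998). Cxcl2 lay at 1.65 (adjusted p = 0.0549, limma), Cxcl3 at 0.96 and Gfi1, a transcription factor of granulopoiesis, at 0.94, each above all control arrays. Of the 24 genes 16 lay above control, where 62.7% of all features did, and 8 below. Without overlap 10 were higher, where 23.8% of all features were, and 2 lower (13.8%). At an unadjusted p under 0.05 there were 10 higher (17.3% of all features) and 4 lower (12.4%). Among those below was Spi1, which encodes PU.1, at -0.81 (adjusted p = 0.146, limma), where WK2 and control arrays overlapped. Another was Cxcl12, the chemokine that retains neutrophils in marrow, at -0.62 with all WK2 arrays below all control arrays. In WK2 against D1 none of the 24 passed. Cxcl1 lay at 2.23 (adjusted p = 0.0645, limma), with all WK2 arrays above all D1 arrays, and Cxcl2 at 1.29. Cxcl12 lay at -0.72 and Spi1 at -1.04, each with all WK2 arrays below all D1 arrays. At an unadjusted p under 0.05, 5 genes were higher (8.96% of all features) and 2 lower, beside 19.2% of all features in either direction.

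Genes of the oxidase, adhesion and signalling of mature phagocytes made up another list, with 19 of 23 measured, and none passed in any comparison. Their medians were 0.22 in D1 and 0.19 in WK2 against control, and 0.04 in WK2 against D1. On D1 replicate 2 the list stood 0.85 above its means, the highest of the 9 arrays, and on D1 replicate 3 at -0.47, the lowest. Fgr, a Src family kinase of myeloid cells, lay at 0.68 ± 0.33 (SE) in D1 and 1.01 ± 0.33 (SE) in WK2 (adjusted p = 0.0936, limma), without overlap with the control in either. Itgal, an integrin subunit, lay at 0.59 in WK2, and the Fc receptor genes Fcgr4 and Fcgr3 at 0.80 and 0.67, again above all control arrays. In WK2 13 of the 19 genes lay above control, where 62.7% of all features did, and 6 below, down to -0.52. Without overlap 5 of 19 were higher and 0 lower, beside 23.8% and 13.8% of all features, so the higher share was near that of all features.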

How the data were processed

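Amplified, Cy5-labelled RNA was hybridised to single-colour arrays, per the labels' protocols. The authors deposited intensity values on a linear scale for 26423 probes; scanner, software and normalization: not given in the sources used here. Values were used as deposited, since array medians differed by at most 0.27 on the log2 scale. Probes were named by the platform annotation, updated through RefSeq's gene table (GRCm38.p6), and the brightest probe by mean stood for a gene. Of the probes, 21876 had 1 symbol and 4547 none.

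Values were taken as log2(intensity + 50) and fitted over all 23631 features and 9 arrays with limma 3.58.1 (R 4.3.3; lmFit, eBayes), with Benjamini-Hochberg adjustment per comparison; the test was tried on simulated data. Lists and genes were chosen with earlier results of these data known. All genes of the list with a probe are named; those given array by array are the 3 of smallest p per comparison and a fixed set of known markers. With 3 arrays against 3, an exact permutation test cannot give p under 0.1. Upstream sequences came from RefSeq. Alternatives changed the pseudocount, normalization, filter, probe rule, moderation, replicate block, arrays in the fit and array weights, and left out each array; leaving out control replicate 2 and D1 replicate 2 together was chosen after seeing the data.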

Additional observations from a re-analysis of the deposited data

How the results depend on the processing

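The number of neutrophil genes past the limma threshold was 0 under all 20 alternatives for D1 against control and for WK2 against D1. For WK2 against control it was 0 under 14 of 20. It was 1 with a pseudocount of 500, 1 with quantile normalization, 1 with median centring, 1 without the dimmest 50% of features and 4 with array weights (Chil1, Clec4d, S100a8 and Retnlg). Leaving out 1 array gave 0 to 1 genes in WK2 against control and 0 in the other comparisons. Over all alternatives the median of the genes ran from 0.02 to 0.91 (D1 against control), -0.03 to 0.88 (WK2 against control) and -0.57 to 0.39 (WK2 against D1); each extreme came from leaving out 1 array or, for 0.88, from array weights. Features called in WK2 against control numbered 380, but 0 in a fit of the 2 groups alone, 1 with the replicate number as a block, 131 with a pseudocount of 16, 777 with 500, 1135 without the dimmest features, 1263 with quantile normalization, 1545 with median centring and 2738 with array weights. They ran from 1 to 953 when 1 array was left out, and were 0 without both replicates 2 of control and D1. In WK2 against D1 they numbered 22, with 0 to 134 over the alternatives. With the replicate block 0 neutrophil genes were called in each comparison (medians 0.51, 0.34 and -0.13). Deviations of same-numbered arrays of different groups had correlations of -0.28 to 0.14, and those of other pairs -0.34 to 0.31. With 3 arrays a group, these values cannot tell whether same-numbered samples were handled together. Depth is not at issue for arrays; dim genes such as Cxcr2 are limited by signal over an unknown background.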
